A study of Schizosaccharomyces pombe with 87 samples.

Results

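Ribosomal RNA (rRNA) genes of fission yeast, Schizosaccharomyces pombe, were taken as the gene records on chromosomes I, II and III of the deposited all-chromosomes annotation whose identifiers start with SPRRNA. There were 47 of them among 12630 gene records, or 0.372%. By the RNA they encode, 36 were 5S genes, 5 were 18S genes, 3 were 5.8S genes and 3 were 28S genes. The 36 5S genes stood singly on all 3 chromosomes, and the other 11 genes formed a cluster at each end of chromosome III. A bound of 200 bp split the records into 33 shorter ones and 14 longer ones. This split did not follow the kind of RNA, because 6 records of 5S genes reached 200 bp or more (SPRRNA.03, SPRRNA.04, SPRRNA.29, SPRRNA.31, SPRRNA.32 and SPRRNA.37) while the 3 genes for 5.8S fell under it.

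The study profiled H3K9me2 and H3K9me3, the histone marks of heterochromatin, by chromatin immunoprecipitation and sequencing in cells grown in YEA medium to log phase at 32 °C. Its labels list 87 libraries, 48 immunoprecipitated and 39 input, with 56 in a strain set called ectopic and 31 in a strain set called endogenous. Across both sets there were 7 genotypes: WT, clr4-delta (lacking the H3K9 methyltransferase), swi6-delta (lacking an HP1 protein), mst2-delta set1-delta (lacking an acetyltransferase and the H3K4 methyltransferase), swi6-delta mst2-delta, swi6-delta set1-delta, and swi6-delta mst2-delta set1-delta. Of these, clr4-delta and mst2-delta set1-delta occurred in the ectopic set only. The files analysed here are 2 annotations of the genome, which hold positions and no value of any library, so no genotype was compared and no test was run. A second annotation, called tetarr6, served for comparison.

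In eukaryotes RNA polymerase I transcribes a long precursor from the rDNA repeat, and the 18S, 5.8S and 28S rRNAs are cut out of it after removal of the internal transcribed spacers ITS1 and ITS2. RNA polymerase III transcribes the 5S rRNA, guided by a control region inside the gene that the factors TFIIIA and TFIIIC recognise, and stops at a run of T. In fission yeast the rDNA repeats lie at the ends of chromosome III and are a known site of H3K9 methylation and silencing, whereas the 5S genes are dispersed. The sequenced genome holds only the borders of the rDNA arrays, which in living cells contain many more repeats.

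The 5S genes were first compared by sequence, taken from RefSeq (assembly ASM294v3) through matched identifiers for all 36. The most common sequence was 119 bases long, and 5 copies are shown because they give the common form and the range of divergence from it. Capitals mark substituted bases, whereas deleted bases leave no mark. Positions within the common sequence are counted from 1 at its 5′ end. Coordinates beside sequences are those of ASM294v3.
SPRRNA.10, chrI:149658-149776, plus strand: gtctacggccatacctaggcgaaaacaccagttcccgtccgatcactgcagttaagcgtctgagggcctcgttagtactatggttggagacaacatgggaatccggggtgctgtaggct
SPRRNA.53, chrI:1563475-1563593, plus strand: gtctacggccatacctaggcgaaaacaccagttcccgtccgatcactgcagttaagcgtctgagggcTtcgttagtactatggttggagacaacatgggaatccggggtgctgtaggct
SPRRNA.04, chrIII:1474259-1474377, minus strand: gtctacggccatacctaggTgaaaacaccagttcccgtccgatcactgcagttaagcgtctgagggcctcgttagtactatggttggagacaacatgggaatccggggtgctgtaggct
SPRRNA.41, chrII:3171572-3171680, minus strand: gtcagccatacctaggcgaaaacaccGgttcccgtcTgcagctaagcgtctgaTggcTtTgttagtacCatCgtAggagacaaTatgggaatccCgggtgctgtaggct
SPRRNA.54, chrII:3096968-3097080, minus strand: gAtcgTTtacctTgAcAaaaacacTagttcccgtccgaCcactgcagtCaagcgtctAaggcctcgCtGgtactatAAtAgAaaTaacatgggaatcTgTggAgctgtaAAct

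The common sequence shown for SPRRNA.10 was found without any change in 23 of 36 5S genes (63.9%). A further 7 genes carried 1 edit (a substituted, inserted or deleted base), and 4 carried 2 or 3. C20T was the change seen most often, in SPRRNA.04 and SPRRNA.05 on chromosome III and SPRRNA.11 on chromosome I. T12C occurred in SPRRNA.30 and SPRRNA.40, which both lie on chromosome II. SPRRNA.53, shown above, carried C68T. The remaining substitutions among the near-identical copies each stood in 1 gene, namely G1A and C39T in SPRRNA.12, C15G and A74G in SPRRNA.15, C40T in SPRRNA.35, and G110T and C111T in SPRRNA.37. G and C made up 54.6% of the common sequence, against 36.1% of the genome.

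SPRRNA.41 and SPRRNA.54, both on the right arm of chromosome II, stood apart from the other 34 genes. SPRRNA.41 differed from the common sequence by 20 edits and SPRRNA.54 by 28, whereas the other 34 differed by at most 3. The record of SPRRNA.41 covered 80 bp, the shortest of all 5S records. It began 35 bases inside the sequence shown, so the 20 edits include some outside the record. Deleted bases made up 10 of the 20 edits in SPRRNA.41 and 6 of the 28 in SPRRNA.54. The tetarr6 annotation names SPRRNA.53, SPRRNA.54 and SPRRNA.55 as predicted 8S rRNA genes. SPRRNA.55 nevertheless held the common 5S sequence with 0 edits and SPRRNA.53 with 1, and RefSeq lists all 3 as 5S genes.

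Lengths of the 5S records varied from 80 to 440 bp, with a median of 150 bp, although the sequence inside 34 of the 36 hardly varied. The 6 records of 200 bp or more measured 209 bp for SPRRNA.04, 220 bp for SPRRNA.37, 229 bp for SPRRNA.03, 241 bp for SPRRNA.29, 246 bp for SPRRNA.31 and 440 bp for SPRRNA.32. All 6 held 1 near-identical copy of the common 119-base sequence with flanking DNA on either side. SPRRNA.32 had 200 bases of flank before it and 121 after it. Among the 34 near-identical genes, 9 records began exactly at the start of the common sequence, 23 began before it and 2 (SPRRNA.53 and SPRRNA.55) began 4 bases inside it. Extra bases after the common sequence were recorded in 25 genes. Of the 36 records, 7 were 119 bp long, and 6 of those equalled the common sequence from end to end. The length bound separated 5S records by where their borders had been drawn.

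**Figure D1:**
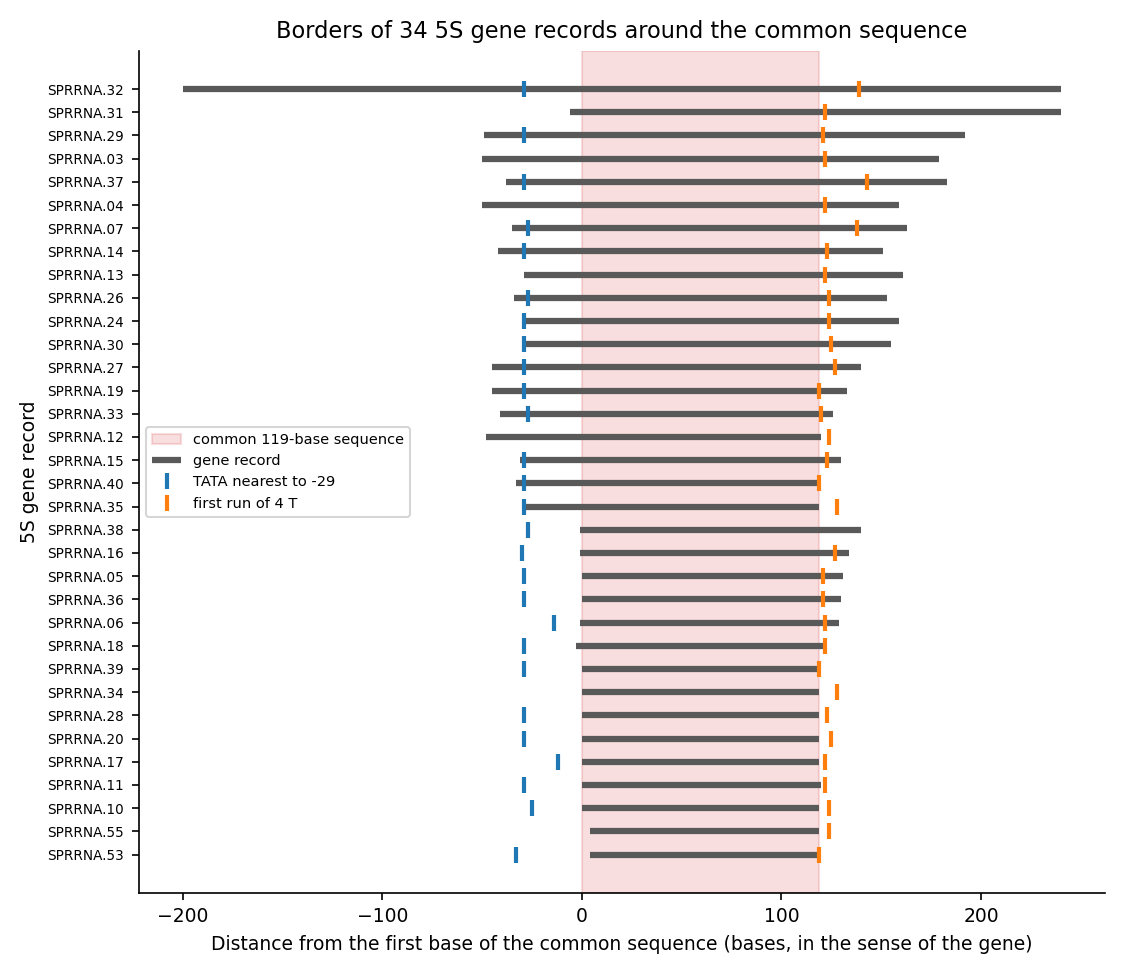
Extent of 34 5S gene records (grey bars) around the common 119-base sequence (shaded), in bases from its start; blue ticks mark TATA nearest to position -29 and orange ticks the first run of 4 T. Bars reach from 200 bases before the sequence to 121 bases after it, and 18 of the 27 blue ticks stand at -29, while the orange ticks lie 1 to 25 bases past the sequence.

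Since the records' borders varied, the flanks were read both from the record borders and from the borders of the common sequence. TATA, searched as these 4 letters on the gene's strand in the 50 bases before the start, was present before 16 of 36 records (44.4%). From the borders of the common sequence it was present before 27 of 34 near-identical genes (79.4%). The same search found it before 77.8% of 171 tRNA genes, which RNA polymerase III also transcribes, and before 32.3% of all genes. TATA began at position -29 in 18 of the 34 genes, and in 24 it began between -32 and -24. A TATA started at -27 in 13 genes, most of which are among the 18, since both starts occur where the letters read TATATA. No TATA was found before SPRRNA.03, SPRRNA.04, SPRRNA.12, SPRRNA.13, SPRRNA.31, SPRRNA.34 or SPRRNA.55. At positions -28 to -25, 4 letters of A or T stood in a row in 32 of the 34 genes. The 60 bases before the common sequence held a median of 77.5% A or T (range 70% to 85%), close to the 76.7% before tRNA genes and above the 65% before all genes.

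**Figure D2:**
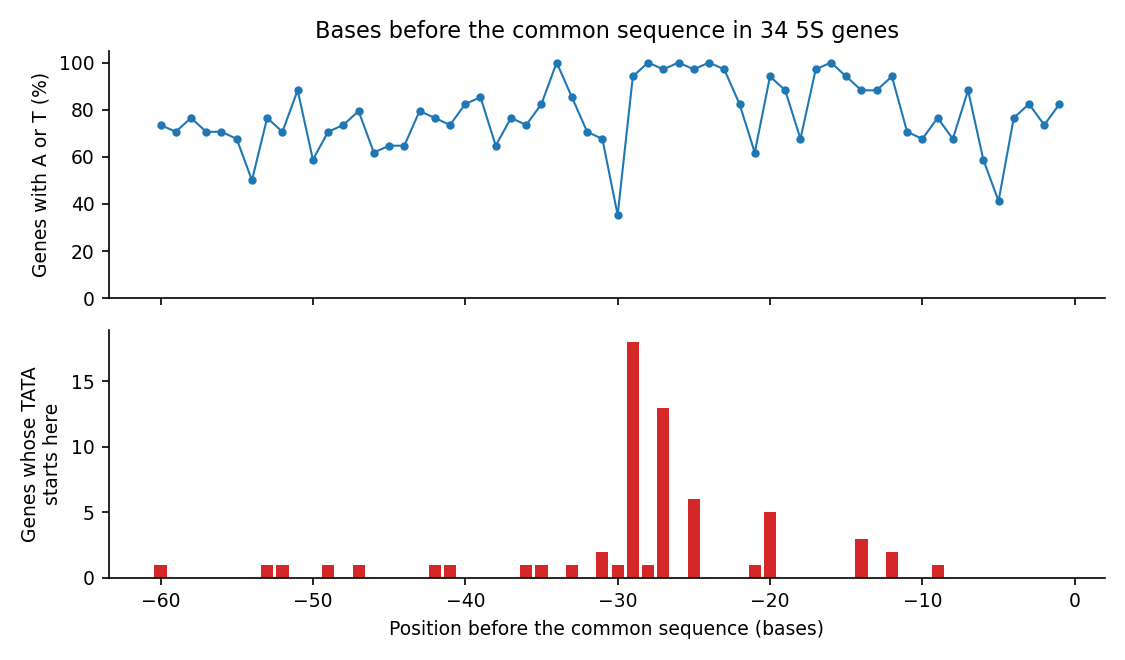
Share of 34 5S genes with A or T at each of the 60 positions before the common sequence (upper panel, percent), and the number of genes in which a TATA starts at each position (lower panel). The highest bar, 18 genes, stands at -29, and a second one of 13 genes at -27; a gene with several TATA is counted at each.

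A run of 4 T, the signal at which RNA polymerase III stops, stood within 30 bases after 21 of 36 records (58.3%). Measured from the end of the common sequence it stood after 33 of 34 genes (97.1%), and the remaining gene, SPRRNA.38, had one within 50 bases. Runs of this kind followed 95.9% of tRNA genes and 31.9% of all genes. The first T of the run lay at a median of 5 bases past the common sequence, from 1 base in SPRRNA.19, SPRRNA.39, SPRRNA.40 and SPRRNA.53 to 25 bases in SPRRNA.37. Unlike the gene body, the flanks as a whole were not shared: among 561 pairs of genes, a median of 25 of 60 bases were equal before the common sequence and 23 of 60 after it.

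A few copies had flanks in common. The following upstream flanks are shown because they hold the longest unbroken matches next to the gene, with TATA and its overlapping repeats in capitals where present.
SPRRNA.03 before, chrIII:1370153-1370212, minus strand: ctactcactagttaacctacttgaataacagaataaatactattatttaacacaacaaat
SPRRNA.04 before, chrIII:1474378-1474437, minus strand: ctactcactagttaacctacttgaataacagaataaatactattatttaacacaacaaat
SPRRNA.55 before, chrIII:853433-853492, minus strand: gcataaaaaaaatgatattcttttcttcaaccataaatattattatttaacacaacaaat
SPRRNA.28 before, chrII:464467-464526, plus strand: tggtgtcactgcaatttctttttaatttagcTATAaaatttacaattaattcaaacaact
SPRRNA.29 before, chrII:520243-520302, plus strand: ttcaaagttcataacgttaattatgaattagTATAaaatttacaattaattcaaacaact
SPRRNA.19 before, chrI:4184474-4184533, minus strand: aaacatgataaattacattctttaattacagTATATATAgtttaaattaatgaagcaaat
SPRRNA.20 before, chrI:4240969-4241028, minus strand: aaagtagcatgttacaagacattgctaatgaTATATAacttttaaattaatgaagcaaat

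SPRRNA.03 and SPRRNA.04, neighbouring 5S genes on chromosome III, were equal over all 60 bases before the gene and over the first 23 bases after it. The common sequences of these genes differed by C20T alone. SPRRNA.28 and SPRRNA.29 on chromosome II shared 29 unbroken bases before the gene, and SPRRNA.19 and SPRRNA.20 on chromosome I shared 20. Each of these 3 pairs consists of direct neighbours among the 5S genes of its chromosome. SPRRNA.55 shared 20 unbroken bases with SPRRNA.03 and SPRRNA.04. SPRRNA.35 and SPRRNA.40, also neighbouring 5S genes on chromosome II, had 50 of 60 bases equal before the gene. Their unbroken match next to the gene was only 1 base, so they are not shown above. In the downstream flank the longest unbroken match, 27 bases, was between SPRRNA.31 on chromosome II and SPRRNA.06 on chromosome III. The downstream flanks of SPRRNA.28 and SPRRNA.03, shown for the T run in capitals, read as follows.
SPRRNA.28 after, chrII:464646-464675, plus strand: tccaTTTTTTTattcgtgaaaaaacaattt
SPRRNA.03 after, chrIII:1370004-1370033, minus strand: tccTTTTattctttttgctttttctgcttt

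Over the chromosomes the 5S genes were spread thinly. Chromosome I held 12 (2.15 per Mb of annotated length), chromosome II held 16 (3.52 per Mb) and chromosome III held 8 (3.26 per Mb), with 21 on the plus strand and 15 on the minus strand. Neighbouring 5S genes were a median of 213947 bp apart, and 0 of 33 gaps between them were 10 kb or less. The closest pair, SPRRNA.05 and SPRRNA.06 on chromosome III, lay 11047 bp apart, and the widest gap, 1413196 bp, separated SPRRNA.53 from SPRRNA.13 on chromosome I. Nuclear tRNA genes had a median spacing of 29147 bp, with 62 of 168 gaps at 10 kb or less. There are 171 tRNA genes (13.60 per Mb), against 36 5S genes (2.86 per Mb). How far this difference in number accounts for the difference in spacing was not tested.

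No 5S gene lay inside a centromere record, whereas 27 of 171 tRNA genes did. These records are short, at 3753687 to 3789421 on chromosome I, 1602418 to 1644747 on II and 1069097 to 1135196 on III. The share of all genes inside them was not counted, so the absence of 5S genes is not read as a trait of theirs. The 5S genes nearest to the centromere were SPRRNA.17 on chromosome I at 40958 bp, SPRRNA.33 on chromosome II at 97919 bp and SPRRNA.26 on chromosome III at 144609 bp. Nearest to a chromosome end were SPRRNA.10 on chromosome I at 149657 bp, SPRRNA.38 on chromosome II at 328877 bp and SPRRNA.07 on chromosome III at 144564 bp. On chromosome I, 8 5S genes stood left of the centromere and 4 right of it, on arms of 3753686 and 1789712 bp. The corresponding numbers were 7 and 9 on chromosome II and 3 and 5 on chromosome III. The first and last 5S genes were SPRRNA.10 and SPRRNA.20 on chromosome I, SPRRNA.28 and SPRRNA.38 on chromosome II, and SPRRNA.24 and SPRRNA.07 on chromosome III.

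**Figure D3:**
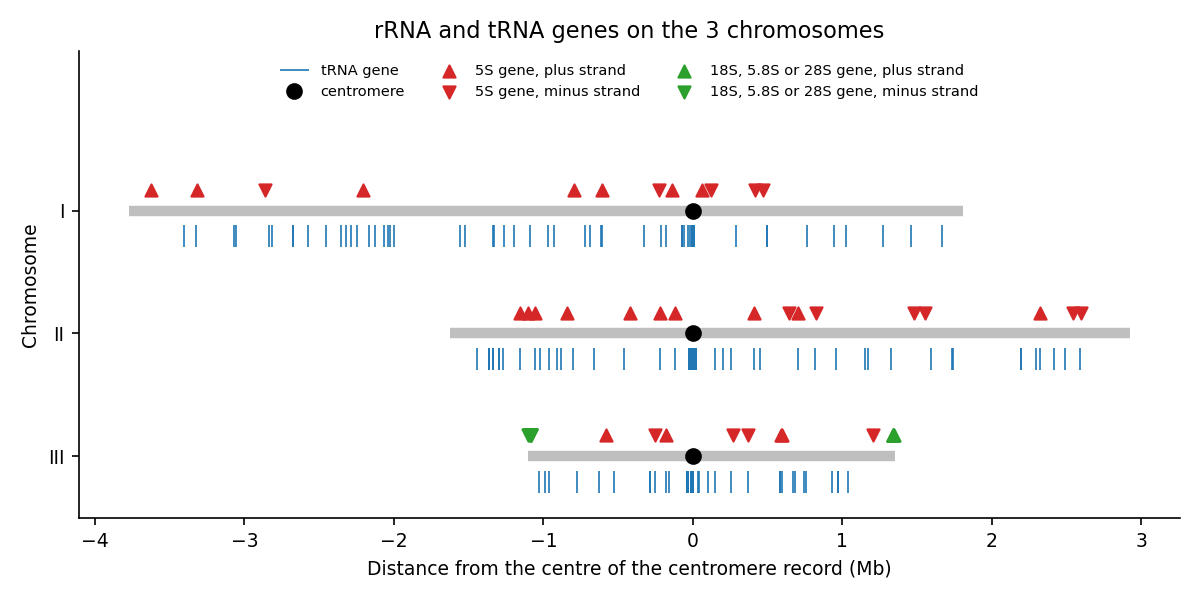
Positions of the 47 rRNA genes (triangles pointing up for the plus strand, down for the minus strand) and of 171 tRNA genes (blue ticks) as distance in Mb from the centre of the centromere record (black dot). The 36 5S genes are scattered over all arms, and the 18S, 5.8S and 28S genes sit at both ends of chromosome III.

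All 36 5S genes lay between mRNA genes, and none overlapped an mRNA record, although mRNA records cover 76.6% of the bases. In comparison, 1 of 171 tRNA genes and 22 of 66 small nucleolar RNA (snoRNA) genes overlapped one. The gap from a 5S gene to the nearest mRNA record had a median of 476.5 bp. SPRRNA.40 was nearest, 68 bp from ucp3, followed by SPRRNA.35 at 86 bp from SPBC24C6.03, SPRRNA.32 at 92 bp from rar1 and SPRRNA.05 at 143 bp from SPCC417.09c. Farthest were SPRRNA.26, 1016 bp from xlf1, a gene of DNA end joining, and SPRRNA.36, 911 bp from tda1. A gap of at most 1 kb was found for 35 of 36 5S genes (97.2%). That share is near the background, since 95.3% of the genes without an mRNA record and 95.9% of all bases lie as close to one.

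Among the 33 short rRNA records, which include the 3 for 5.8S, 29 had an mRNA record within 1 kb and the median gap was 507 bp. The 4 others were SPRRNA.26 and the genes for 5.8S, of which SPRRNA.51 lay 7421 bp, SPRRNA.52 6717 bp and SPRRNA.50 18291 bp from an mRNA record. Of tRNA genes, 67.8% had an mRNA record within 1 kb, or 80.6% of the 144 outside the centromere records, and of snoRNA genes 98.5% had one. The space between the mRNA records flanking a 5S gene had a median of 1835 bp. For tRNA genes it was 1920.5 bp. All 3939 spaces between mRNA records had a median of 394 bp, and 7.84% of them were at least as long as the 5S median. When every base between mRNA records was counted, the middle one lay in a space of 1333 bp. How far the length of a space accounts for where 5S genes stand was not tested.

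In 22 of the 36 spaces (61.1%) the flanking mRNA genes pointed the same way. They diverged in 11 (30.6%) and converged in 3 (8.33%), namely around SPRRNA.05, SPRRNA.06 and SPRRNA.20. Over all spaces between mRNA records 54.4% were tandem, 31.9% divergent and 13.7% convergent, and around tRNA genes 52.4%, 25.3% and 22.4%. The mRNA gene upstream of the 5S gene was on the same strand in 13 cases and the one downstream in 21. Median gaps were 806 bp on the upstream side and 518 bp on the downstream side. Flanking genes included hsp90, which encodes a chaperone and lies 522 bp downstream of SPRRNA.18, tif211, which encodes a translation initiation factor subunit and lies 881 bp downstream of SPRRNA.14, and pht1, the gene of histone H2A.Z, 887 bp upstream of SPRRNA.33.

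Several 5S genes stood next to a tRNA gene, a product of the same polymerase. A tRNA gene was found within 5 kb of 13 of 36 5S genes (36.1%), against 10.8% of all genes that are not tRNA genes themselves. Within 1 kb the numbers were 10 of 36 (27.8%) against 3.76%. Of snoRNA genes 15.2% had a tRNA gene within 5 kb and 0 of 66 within 1 kb, while 43.9% and 36.8% of tRNA genes had another tRNA gene that near. Among the 33 short records 11 had one within 5 kb. Positions in a genome are not replicate samples, so these shares are given without a test.

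SPRRNA.06 had the shortest gap, 150 bp to SPCTRNAASN.06 on chromosome III. It was followed by SPRRNA.39 with 176 bp to SPBTRNAASN.02, SPRRNA.26 with 183 bp to SPCTRNAARG.09, SPRRNA.28 with 217 bp to SPBTRNAHIS.01 and SPRRNA.38 with 233 bp to SPBTRNAASN.04. SPRRNA.33 (307 bp), SPRRNA.36 (519 bp), SPRRNA.14 (533 bp), SPRRNA.04 (606 bp) and SPRRNA.30 (850 bp) completed the 10 within 1 kb. In all 10 no mRNA record stood between the 5S gene and the tRNA gene, so that both shared 1 space. The pair was on the same strand in 9 of these 10, the exception being SPRRNA.04. Among the 13 with a tRNA gene within 5 kb, it lay upstream of the 5S gene in 10 and downstream in 3 (SPRRNA.30, SPRRNA.36 and SPRRNA.38). Strand, side and intervening mRNA records are not given for other genes near a tRNA gene. These counts are therefore not read as particular to 5S genes. Asparagine tRNA genes were the partner in 3 of the 13, threonine in 2, and 8 other amino acids in 1 each. Adding SPRRNA.05 (1056 bp), 11 5S genes shared a space with a tRNA gene. Of these 11, 8 held the common sequence with 0 edits and 3 with 1 edit, which 30 of the 36 5S genes did.

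**Figure D4:**
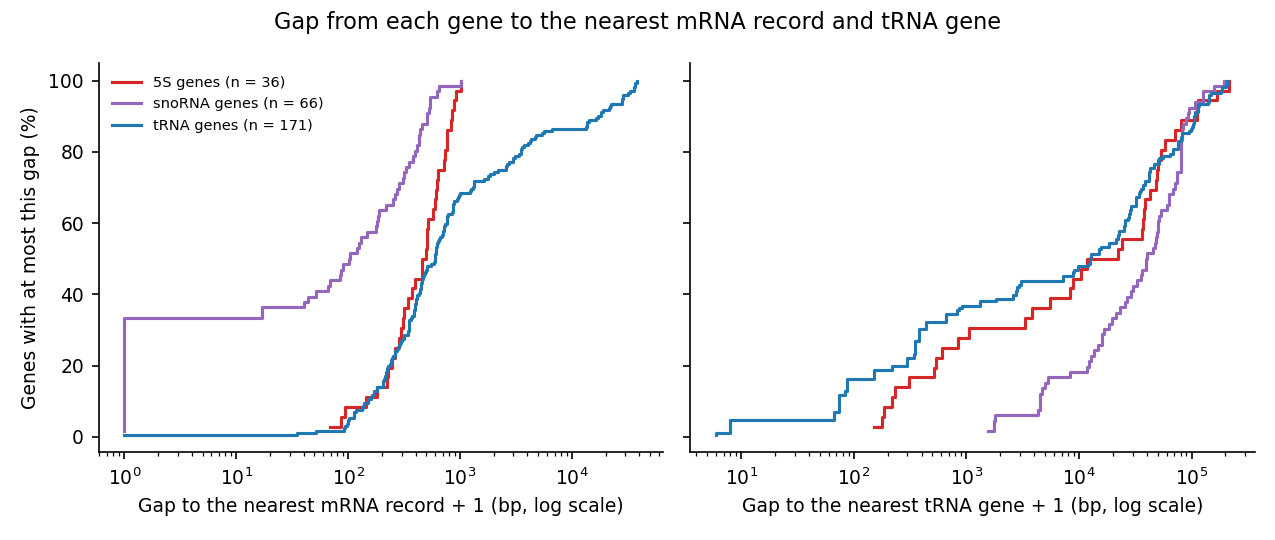
Cumulative share of 36 5S genes, 66 snoRNA genes and 171 tRNA genes (percent) by gap to the nearest mRNA record (left) and to the nearest other tRNA gene (right), in bp plus 1 on log axes. Within 1 kb of a tRNA gene lay 27.8% of 5S genes, 36.8% of tRNA genes and 0 snoRNA genes.

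Long terminal repeats (LTRs), the ends of Tf retrotransposons, lay within 5 kb of 4 of 36 5S genes (11.1%), against 16.1% of all genes. The 4 were SPRRNA.53 at 223 bp, SPRRNA.37 at 295 bp, SPRRNA.41 at 2293 bp and SPRRNA.36 at 3839 bp. SPRRNA.53 also lay 507 bp from the mRNA record named Tf2-2. A tRNA gene stood within 5 kb of SPRRNA.36 and of none of the other 3.

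Annotated long non-coding RNA (lncRNA) genes overlapped rRNA genes on the opposite strand and never on the same strand. Same-strand overlap was rare elsewhere too, at 0 of 171 tRNA genes and 1.36% of all genes without an mRNA record. Among snoRNA genes it reached 9.09%. Of the 7517 genes without an mRNA record, 7157 are lncRNA genes themselves, so their shares mainly describe overlap between lncRNA genes. An antisense lncRNA overlapped 23 of 36 5S genes (63.9%), and in 18 it covered the whole common sequence or its diverged counterpart. The share with any overlap was 81.8% among the genes of the arrays (9 of 11), 13.5% among tRNA genes and 22.7% among snoRNA genes. It was 21.3% among all genes without an mRNA record, again mostly lncRNA genes. In the arrays no lncRNA covered a whole rRNA gene, and each met a gene only from an end. SPNCRNA.6677, for example, stopped 43 bp past the first base of SPRRNA.44, an 18S gene of 1842 bp. On either strand lncRNA genes cover 47.8% of the bases, with 25.4% on the plus strand and 25.5% on the minus strand. A whole record meets a lncRNA more easily than a single base does, and how far record length or annotation practice sets the shares was not tested. The overlapping lncRNA genes numbered 32, with lengths of 200 to 3896 bp and a median of 459 bp.

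The other 11 rRNA genes made up the arrays at the ends of chromosome III, where the records occur in the order 18S, 5.8S, 28S. The left cluster ran from position 1 to 23130 with 7 genes, all on the minus strand. From the chromosome end inward these were SPRRNA.42 (18S, cut at the end), SPRRNA.47 (28S), SPRRNA.50 (5.8S), SPRRNA.43 (18S), SPRRNA.48 (28S), SPRRNA.51 (5.8S) and SPRRNA.44 (18S). The right cluster ran from 2439187 to 2451076 with 4 genes on the plus strand, SPRRNA.46 (18S), SPRRNA.52 (5.8S), SPRRNA.49 (28S) and SPRRNA.45 (18S, cut at the end). Both clusters were therefore transcribed toward their chromosome end, with 2 full sets on the left and 1 on the right. All positions of genes are those of the deposited annotation.

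**Figure D5:**
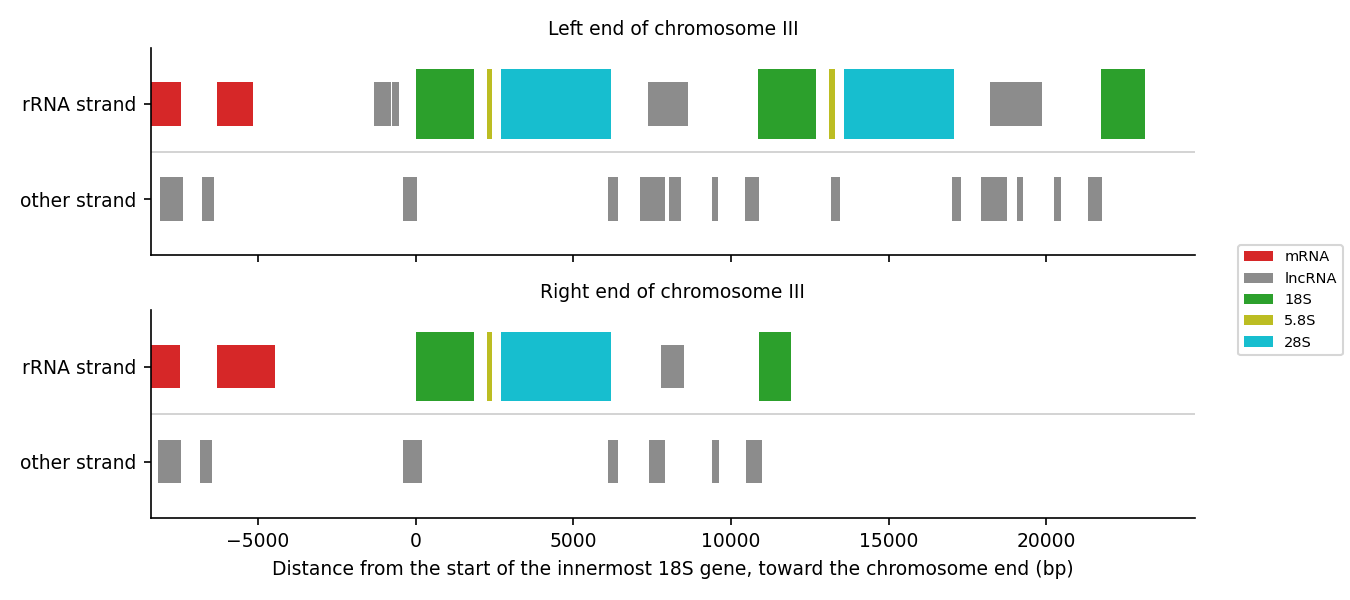
Genes at the left and right ends of chromosome III, by distance in bp from the start of the innermost 18S gene toward the chromosome end; records on the strand of the rRNA genes are drawn above the line and the others below it. Sets of 18S, 5.8S and 28S repeat after 10870 bp on the left and 10889 bp on the right, mRNA genes end 5167 and 4463 bp before the first 18S gene, and most lncRNA genes lie on the other strand.

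Copies of the mature rRNA genes were identical. The full 18S records measured 1842 bp, the 5.8S records 165 bp and the 28S records 3485 bp, and within each kind all full copies differed by 0 edits. The cut SPRRNA.42 held bases 1 to 1390 of the 18S sequence (75.5%), with an unresolved base of the assembly written as T847N, counted from the first base of 18S. The cut SPRRNA.45 held bases 1 to 1001 (54.3%). The 5.8S sequence is shown because it is the only array gene short enough to give whole, and all 3 copies shared it.
SPRRNA.50, chrIII:9842-10006, minus strand: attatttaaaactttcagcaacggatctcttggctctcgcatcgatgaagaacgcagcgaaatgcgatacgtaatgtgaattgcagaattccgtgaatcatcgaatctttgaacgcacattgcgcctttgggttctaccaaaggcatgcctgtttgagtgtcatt

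Spacers between the genes had the same lengths in all sets, 412 bp for ITS1 and 300 bp for ITS2. The spacer from the end of 28S to the next 18S measured 4666 bp on the left and 4685 bp on the right, which gave repeat lengths of 10870 and 10889 bp, a difference of 19 bp. The 2 complete repeats on the left, from 18S start to 18S start, had 0 edits between them. Compared with the right repeat, either showed 46 edits, made of 11 substitutions and 35 inserted or deleted bases, so that 99.6% of aligned positions were equal. Of the 46 edits, 42 fell in the spacer between 28S and 18S, 2 in ITS1, 2 in ITS2 and 0 in the mature genes. ITS1 and ITS2 were poor in G and C, at 19.7% and 21%, next to 45% in 18S, 43% in 5.8S, 47.1% in 28S and 30.9% in the long spacer.

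No mRNA, tRNA or LTR record lay inside either cluster. The left cluster contained 13 lncRNA genes, 11 of them opposite in strand to the rRNA genes, and the right one 5, of which 4 were opposite. The nearest mRNA genes were SPCP20C8.01c, 5167 bp from SPRRNA.44, and SPCC569.01c, 4463 bp from SPRRNA.46. Accordingly 0 of 11 array genes had an mRNA record within 1 kb, and their median gap was 7886 bp. An origin of replication was recorded in the right spacer, from 2446609 to 2447644 (1036 bp), between SPRRNA.49 and SPRRNA.45, and none in the left ones. The arrays held no 5S gene. The nearest 5S gene was 498351 bp from the left array and 132674 bp from the right one. SPRRNA.51, the only array gene of the left side other than SPRRNA.44 that was more than 20 kb from the chromosome end, lay 20711 bp from it.

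Repeated sequence limits which of these records a short read lying within them can be assigned to. None of the 11 array records contained a stretch of 50 or of 100 bases that occurs only once on chromosomes I to III of ASM294v3, both strands counted and stretches with an unresolved base left out. Among the 36 5S records 26 contained such a stretch of 50 bases and 10 contained none. A median of 30.6% of the 50-base stretches of a 5S record were unique, from 0% in SPRRNA.10 to 100% in the diverged SPRRNA.41 and SPRRNA.54. In SPRRNA.32, with its long flanks, the share was 78.8%. The sources used here give neither the read length nor the handling of reads that match several places.

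Genes for the machinery that makes or binds these RNAs were looked up by symbol, and 22 of 23 symbols were matched. The list held 12 symbols for RNA polymerase III and its factors and 7 for RNA polymerase I and rDNA. Another 4 were for the ribosomal proteins Rpl5 and Rpl11, which bind 5S rRNA. The symbol rpa1, of the polymerase I list, was not matched, which does not mean that the gene is absent. Only sfc6 lay within 20 kb of an rRNA gene, against 12.1% of all mRNA genes. It encodes a subunit of TFIIIC and stood 695 bp upstream of SPRRNA.34. Next came rpa2, a polymerase I subunit gene, 20454 bp from SPRRNA.39. The median gap to an rRNA gene was 177515.5 bp for the list and 114429 bp for all mRNA genes.

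All 47 rRNA genes were also present in the tetarr6 annotation and in RefSeq, each with the same length and strand. By comparison, 28.3% of the 6779 genes shared with tetarr6 had equal lengths there, as did all 169 shared tRNA genes. Starts in tetarr6 were equal for 27 of the 47. They were 6539 bp lower for 8 genes on chromosome II, 3041 bp higher for 3 and 1213 bp higher for 9 on chromosome III. The 7 genes of the left array kept their positions.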

How the data were processed

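Chromatin immunoprecipitation libraries for H3K9me2 and H3K9me3 are described in the labels, and groups were read from their titles. The submitters' processing notes list Trimmomatic and BWA without versions, and the sources used here name no genome build. The 2 deposited files used are genome annotations, and the values read from them are the first and last base of each record. The authors' all-chromosomes annotation credits PomBase in its source fields, and tetarr6 was exported from Geneious, per the file headers. Neither holds counts or signal, so sequencing depth is unknown and no interval is given.

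Gaps between records were counted in bases, with 0 for an overlap, and records at most 10 kb apart formed a cluster. Near meant at most 1 kb for mRNA records, 5 kb for tRNA genes and LTRs, and 20 kb for the gene list. Sequences came from RefSeq ASM294v3, matched by identifier. Deposited minus RefSeq positions come to 6539 bp on the right part of chromosome II and to -1807 bp on chromosome III beyond the left array, so no position was converted. The most common 5S sequence was placed in each gene with edlib 1.3.9.post1, and the genome was searched for it at up to 40 edits. Python 3.11.15 was used throughout, and plots were drawn with matplotlib 3.10.9. The gap count and the placement of a sequence were tested on simulated data.

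Members, lists and bounds were chosen with earlier results of these data known. The rule for named genes took every rRNA gene of 200 bp or more or within 20 kb of an end of chromosome III, the first and last short gene on each chromosome, the 3 nearest to and 3 farthest from an mRNA record, the 3 nearest to a tRNA gene, the most divergent ones and their neighbours. Other genes were named after their values were seen. The counts for 5S genes of any length, the borders of the common sequence, the flank pairs and the stretches of 50 and 100 bases were chosen after seeing the data. Length bounds, distances, record types and motif windows were varied as alternatives.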

Additional observations from a re-analysis of the deposited data

How the results depend on the processing

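Of 30 alternative settings, 24 left a count within 1.5 times of its reported value or a median gap within its spread, and 6 moved it. A length bound of 150 bp in place of 200 bp left 18 short rRNA genes instead of 33. A gap of at most 500 bp to an mRNA record in place of 1 kb left 16 short genes instead of 29. TATA stood before 25 of the 5S records within 100 bases, and before 27 of 34 genes from the borders of the common sequence, instead of 16. Runs of 4 T followed 13 records within 10 bases, and 33 of 34 genes from the borders of the common sequence, instead of 21. Those borders were chosen after seeing the data. No paired analysis was possible because no value belongs to a library. All values depend on the annotation and on 1 assembly, whose rDNA holds only array borders, and sequencing depth limits none of them.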

Other observations

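A search of chromosomes I to III of ASM294v3 for the common 5S sequence at up to 40 edits gave 37 places, of which 36 were the recorded 5S genes. The remaining place, on chromosome II from 2948309 to 2948425 on the plus strand, had 35 edits and no rRNA record. It lay within the record of the lncRNA gene SPNCRNA.1565. The most divergent recorded 5S gene, SPRRNA.54, had 28 edits.

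Of 7157 lncRNA genes in the all-chromosomes annotation, 99.5% had a gene record in RefSeq and 34 had none. Of those 34, 32 overlapped an rRNA gene, and they were all of the lncRNA genes that did so. The tetarr6 annotation held 19.3% of all lncRNA genes and 1 of these 32.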
